A study of Mus musculus with 6 samples.

Results

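The genes described here encode 9 proteases with a known part in breaking down the amyloid-beta peptide, directly or, for Plat, through another enzyme: Mme, Ide, Ece1, Ece2, Mmp2, Mmp14, Ctsb, Ctsd and Plat. They were picked by name from the 36210 gene rows of the deposited expression table, where each of the 9 symbols had 1 row, and all 9 passed the filter on low counts that left 20363 genes for testing. The libraries are labelled as adult astrocytes from the brains of APP/PS1 mice aged 8 months, a transgenic model that makes mutant amyloid precursor protein and presenilin 1 and deposits amyloid. 3 libraries were from APP/PS1 mice dosed with AVE0991, a nonpeptide compound that mimics angiotensin-(1-7), at 10 mg per kg, and 3 were from APP/PS1 mice given sterile saline as vehicle. Injections were intraperitoneal, daily, for 30 days. All 6 libraries therefore carry the amyloid transgenes, and no wild-type mice enter the comparison. The labels do not name separate animals, and the spread that the p-values measure may be partly technical.

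Amyloid-beta is removed from the brain partly by proteolysis, and the enzymes differ in where they meet the peptide. Neprilysin (Mme) and membrane type 1 matrix metalloproteinase (Mmp14) face the outside of the cell, gelatinase A (Mmp2) is secreted, insulin-degrading enzyme (Ide) is mostly cytosolic and partly secreted, and the endothelin-converting enzymes (Ece1 and Ece2) and the cathepsins B and D (Ctsb and Ctsd) work in acidic vesicles and lysosomes. Tissue plasminogen activator (Plat) acts indirectly, by turning plasminogen into plasmin.

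The 9 enzymes use 4 kinds of active site, and the coding sequence around each active site is shown because it defines what the members are and which of them are close relatives. Neprilysin and the endothelin-converting enzymes hold zinc with the same short motif, in which a histidine and a glutamate are followed at a fixed distance by another histidine. Capitals mark the codons of the catalytic motif, with 15 bases on either side, taken from the longest reading frame among each gene's GENCODE M21 transcripts.
Mme (chromosome 3, coding bases 1735 to 1779): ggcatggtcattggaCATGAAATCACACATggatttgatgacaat
Ece1 (chromosome 4, coding bases 1753 to 1797): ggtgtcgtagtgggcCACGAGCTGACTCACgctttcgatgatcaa
Ece2 (chromosome 16, coding bases 1783 to 1827): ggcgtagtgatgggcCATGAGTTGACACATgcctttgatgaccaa
The metzincins Mmp2 and Mmp14 extend that motif by a further histidine, and Ide carries it in inverted order.
Mmp2 (chromosome 8, coding bases 1192 to 1254): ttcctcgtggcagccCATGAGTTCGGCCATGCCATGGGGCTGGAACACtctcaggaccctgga
Mmp14 (chromosome 14, coding bases 700 to 762): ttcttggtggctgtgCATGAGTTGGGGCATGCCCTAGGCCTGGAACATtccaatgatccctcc
Ide (chromosome 19, coding bases 184 to 228): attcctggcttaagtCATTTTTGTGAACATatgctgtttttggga
Cathepsin B attacks with a cysteine, cathepsin D with a pair of aspartates of which the first is shown, and tissue plasminogen activator with a serine.
Ctsb (chromosome 14, coding bases 298 to 348): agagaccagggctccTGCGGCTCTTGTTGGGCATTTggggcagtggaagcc
Ctsd (chromosome 7, coding bases 274 to 318): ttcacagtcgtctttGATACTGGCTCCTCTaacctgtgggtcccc
Plat (chromosome 8, coding bases 1507 to 1554): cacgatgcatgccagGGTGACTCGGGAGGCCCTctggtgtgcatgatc
Within the zinc motif Ece1 and Ece2 shared 11 of 15 bases, Mme and Ece2 12 of 15, Mme and Ece1 9 of 15, and Mmp2 and Mmp14 27 of 33. Over the aligned coding sequences identity was 67.1% between Ece1 and Ece2 and 64.4% between Mmp2 and Mmp14. The longest run of identical bases was 17 in each of those pairs of transcripts, which bears on how well reads can be told apart. Ece2 shares its annotated locus with the read-through gene Eef1akmt4-Ece2, and the annotated end of Ctsb overlaps that of Fdft1. The sources do not state a stranded count, and reads from such overlaps cannot be assigned with certainty.

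Library totals ran from 44583274 to 50066615 counts on gene rows. Markers of astrocytes were present in every library, with summed levels of 6120 to 7446 CPM (counts scaled to TMM-adjusted library size) in AVE0991 and 5418 to 6807 CPM in vehicle libraries over 7 markers. Of these markers 6 of 7 had a log2 fold change above 0, with a median of 0.64, above that of any of the 9 proteases; 0 were called. Aldh1l1, Slc1a3, Aldoc and Gfap were higher without overlap and 0 markers were lower, beside 14.3% and 16.3% of all genes tested. Slc1a2, with the most counts, was at -0.32. Within AVE0991 the shift was uneven. In replicates 1, 2 and 3 Aldh1l1 had 145, 193 and 193 CPM and Slc1a3 519, 657 and 955 CPM. Aldoc had 1536, 2240 and 2389 CPM, and Gfap, which lacked this pattern, 541, 519 and 589 CPM. Replicates 2 and 3 are also the libraries of high cerebellar signal described below. The part of the astrocyte marker shift in the protease values was not tested, nor was that of the cerebellar signal in the shift. Neuronal markers summed to 3138 to 3689 CPM in AVE0991 and 3599 to 4185 CPM in vehicle libraries, and mature oligodendrocyte markers to 5470 to 11780 and 3609 to 7876 CPM, so the libraries hold RNA of other brain cells too. In 3 of 6 libraries the oligodendrocyte sum exceeded the astrocyte sum, and Camk2a, a gene of excitatory neurons, had up to 3647 CPM in AVE0991 and 4067 CPM in vehicle libraries. These values go against a pure astrocyte preparation, so the libraries are called by their treatment. In such bulk RNA, a shift in the share of a cell type and a shift in RNA per cell cannot be told apart. AVE0991 replicates 2 and 3 stood apart: the 7 cerebellar granule cell markers summed to 196, 1416 and 1446 CPM in AVE0991 replicates 1, 2 and 3, against 170 to 193 CPM in vehicle libraries. All 7 had a log2 fold change above 0, and none was at 0 counts in any library. The 5 Purkinje cell markers summed to 1051, 2483 and 3723 CPM in the same AVE0991 libraries, against 757 to 992 CPM in vehicle libraries. Vehicle libraries differed too: choroid plexus and ependyma markers summed to 136, 1383 and 772 CPM in vehicle replicates 1, 2 and 3. Their sums were 374 to 564 CPM in AVE0991 libraries.

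Per length the 9 genes differed widely in level. On the authors' FPKM scale (fragments scaled to transcript length and library size) the lysosomal cathepsins were the most abundant. Ctsd averaged 212 ± 9.36 FPKM in AVE0991 and 201 ± 15.4 FPKM in vehicle libraries, and Ctsb 192 ± 15.9 and 173 ± 16.5 FPKM (SD, n = 3 each). Their ranges over the 6 libraries overlapped, although Ctsd exceeded Ctsb in 5 of 6. A middle group followed at much lower levels, in the order Ece1, Ece2, Plat, Ide and Mmp14, with means over the 6 libraries of 15.04, 12.5, 9.40, 8.69 and 6.79 FPKM. Neighbours in that order overlapped except Ide and Mmp14. Mmp2 and Mme were lowest, at 0.997 ± 0.273 and 0.933 ± 0.522 FPKM over all libraries (SD, n = 6), and their ranges overlapped each other but not that of Mmp14.

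**Figure D1:**
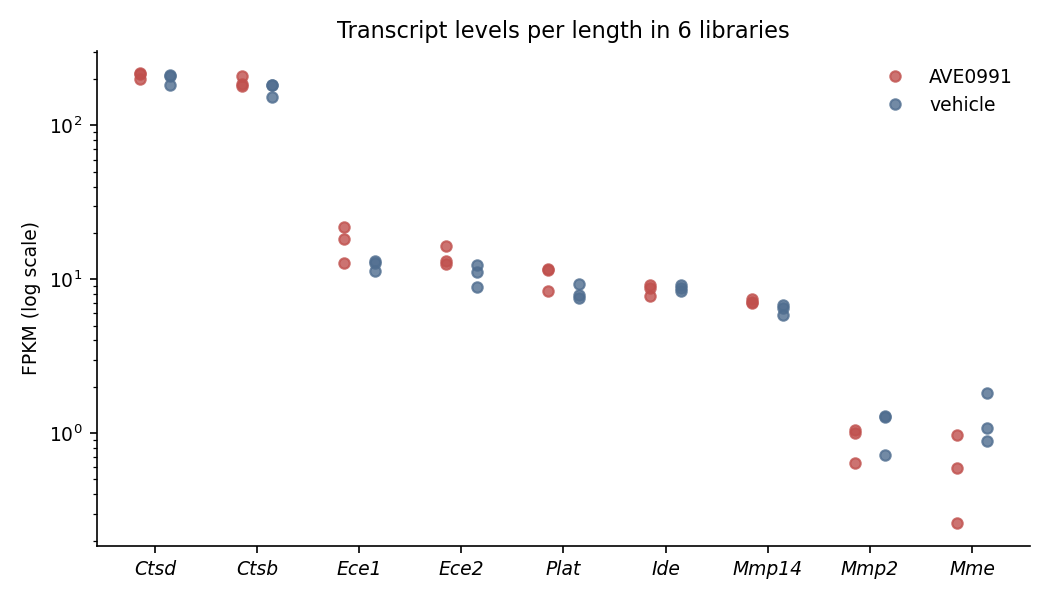
Levels per transcript length of the 9 protease genes. Each point is 1 library on a logarithmic FPKM axis, with AVE0991 libraries left of vehicle libraries for each gene, ordered by the mean over 6 libraries. Ctsd and Ctsb lie between 153.8 and 218.1 FPKM in every library, and Mmp2 and Mme between 0.26 and 1.81 FPKM.

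None of the 9 proteases passed the test of AVE0991 against vehicle at an adjusted p under 0.05. In the edgeR quasi-likelihood fit 0 of 9 were called in either direction. Of the 20363 genes tested 0.864% were called, 0.0344% higher and 0.83% lower, and the smallest adjusted p among the members was 0.154. At an unadjusted p under 0.05 there were 4 members (Ece1, Plat, Ece2 and Mmp14), where 23.6% of all genes tested met that mark. DESeq2 called 0 of 9 beside 11.4% of all genes, and limma-voom with quality weights per library 0 of 9 beside 6.36%. Among the members 7 of 9 log2 fold changes were above 0, with a median of 0.24, against 49.3% above 0 and a median of -0.01 over all genes tested. The estimates ran from -1.002 for Mme to 0.61 for Ece1.

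**Figure D2:**
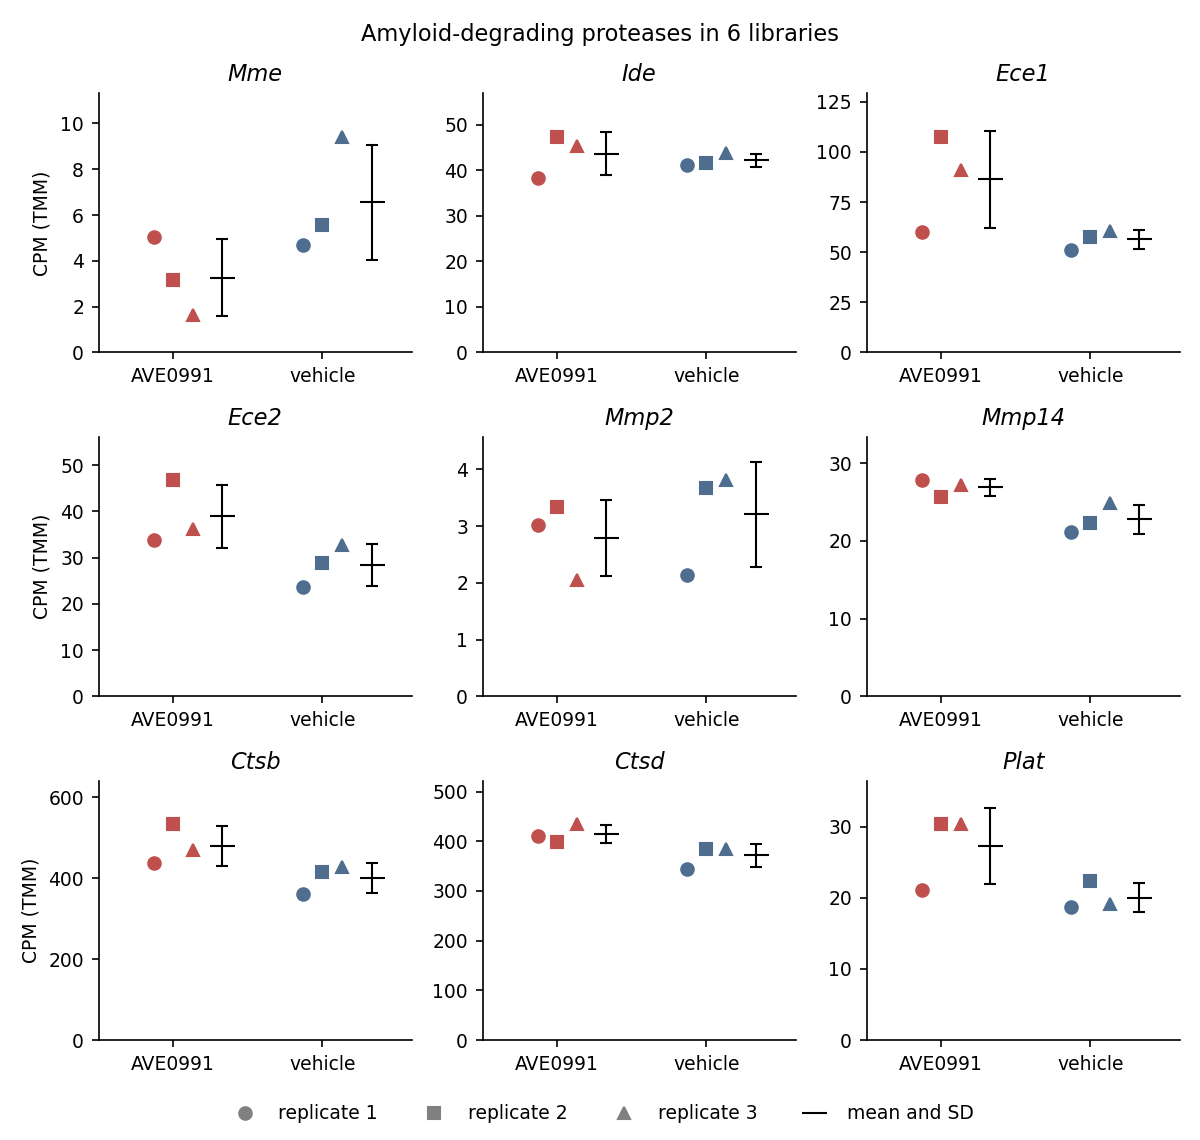
TMM-scaled CPM of each protease gene in the 3 AVE0991 and 3 vehicle libraries, 1 symbol per library, with the group mean and SD beside the points. In Ece1 and Plat AVE0991 replicates 2 and 3 lie above the other libraries, whereas AVE0991 replicate 1 lies within the vehicle range; Mme is lowest in AVE0991 replicate 3, at 1.63 CPM.

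Neprilysin is the membrane peptidase best known for amyloid-beta breakdown, and in the mouse brain it is abundant in the striatum. Mme had 5.02, 3.16 and 1.63 CPM in AVE0991 replicates 1, 2 and 3, against 4.70, 5.58 and 9.42 CPM in vehicle replicates 1, 2 and 3. The groups overlapped, since AVE0991 replicate 1 lay above vehicle replicate 1. These values rest on 252, 145 and 72 counts in AVE0991 and 213, 285 and 473 counts in vehicle libraries. The log2 fold change was -1.002 (SE 0.45, 95% interval -2.06 to 0.06, edgeR adjusted p = 0.231), so the interval reached past no difference. Without AVE0991 replicates 2 and 3 the estimate was -0.38, and with replicate 1 left out instead it was -1.45. Without vehicle replicate 3, the library with the highest Mme, it was -0.65. The longest Mme transcript had the lowest GC content of the 9, at 38.0%, and the log2 fold change of all genes moved with GC content, with a median of -0.36 in the fifth of genes with the lowest GC content and 0.19 in that with the highest. With a correction for GC content the log2 fold change of Mme was -0.40 (adjusted p = 0.692).

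The 7 striatal projection neuron markers summed to 1173, 315 and 366 CPM in AVE0991 replicates 1, 2 and 3, against 442, 515 and 977 CPM in vehicle replicates 1, 2 and 3. Mme was highest in vehicle replicate 3, the vehicle library with the highest striatal sum, and low in AVE0991 replicates 2 and 3, those with the lowest sums. In AVE0991 replicate 1, which had the highest striatal sum of all, Mme lay below vehicle replicate 2. Of the striatal markers 1 of 7 had a log2 fold change above 0, 0 were called, and none was at 0 counts in any library. Their part in the Mme values was not tested. The genes with the pattern most like that of Mme over the 6 libraries, by the root mean square difference of centred log2 CPM, were Foxp2 (0.13), Cbln2 (0.18) and Wnt2b (0.22). Foxp2, a forkhead transcription factor, had 15.1, 8.90 and 5.22 CPM in AVE0991 replicates 1, 2 and 3, against 13.9, 20.6 and 31.3 CPM in vehicle replicates 1, 2 and 3.

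The endothelin-converting enzymes cleave big endothelin and, inside vesicles, amyloid-beta. Ece1 had 60.2, 107.6 and 91.1 CPM in AVE0991 replicates 1, 2 and 3, against 51.3, 57.5 and 60.4 CPM in vehicle replicates 1, 2 and 3. AVE0991 replicates 2 and 3 were above every vehicle library, while AVE0991 replicate 1 fell just short of vehicle replicate 3. The means were 86.3 ± 24.1 CPM in AVE0991 and 56.4 ± 4.64 CPM in vehicle libraries (SD, n = 3 each), a 1.53-fold difference (log2 fold change 0.61, SE 0.21, 95% interval 0.12 to 1.11, edgeR adjusted p = 0.154). The libraries with high Ece1 were the libraries with high cerebellar marker sums. They also had the lowest striatal projection neuron sums, at 315 and 366 CPM. AVE0991 replicate 2 had the lowest sum of cortical and hippocampal excitatory markers, at 1304 CPM, against 2875 to 5398 CPM in vehicle libraries. AVE0991 replicate 3, also high in Ece1, lay within that vehicle range at 4251 CPM. The part of these signals in the Ece1 values was not tested. Without AVE0991 replicates 2 and 3, with AVE0991 replicate 1 alone against the vehicle libraries, the log2 fold change of Ece1 was 0.10. Without AVE0991 replicate 1 it was 0.82 and Ece1 passed (adjusted p = 0.014). The genes most like Ece1 over the 6 libraries were Med12 (root mean square difference 0.04), Inpp5e (0.04) and Sdc3 (0.04). Sdc3, the heparan sulphate proteoglycan syndecan-3, had 293, 519 and 409 CPM in AVE0991 replicates 1, 2 and 3, against 249, 263 and 284 CPM in vehicle replicates 1, 2 and 3.

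Ece2 is the neuronal and more acid-loving relative of Ece1. It had 33.9, 46.7 and 36.1 CPM in AVE0991 replicates 1, 2 and 3, against 23.5, 28.8 and 32.7 CPM in vehicle replicates 1, 2 and 3. All AVE0991 libraries lay above all vehicle libraries, by a small margin between 33.9 and 32.7 CPM. The log2 fold change was 0.46 (SE 0.17, 95% interval 0.05 to 0.86, edgeR adjusted p = 0.178). Without AVE0991 replicates 2 and 3 it stood at 0.26. The ratio of Ece1 to Ece2 on the FPKM scale was 0.970, 1.33 and 1.46 in AVE0991 replicates 1, 2 and 3, against 1.26, 1.13 and 1.06 in vehicle replicates 1, 2 and 3, so the balance of the relatives did not separate the groups.

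Insulin-degrading enzyme, a cytosolic peptidase of insulin and amyloid-beta, was the most even member. Ide had 38.3, 47.4 and 45.3 CPM in AVE0991 replicates 1, 2 and 3, against 41.1, 41.7 and 43.8 CPM in vehicle replicates 1, 2 and 3. AVE0991 libraries were both the lowest and the highest. The log2 fold change was 0.05 (SE 0.11, edgeR adjusted p = 0.815), and its 95% interval of -0.21 to 0.31 leaves room for differences up to about that size in either direction. The sign was not fixed: with library totals in place of TMM it was -0.04, and after the GC correction 0.25.

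The matrix metalloproteinases form an activation chain in which Mmp14 at the cell surface cleaves the Mmp2 proenzyme. Mmp14 had 27.8, 25.6 and 27.3 CPM in AVE0991 replicates 1, 2 and 3, against 21.2, 22.3 and 24.8 CPM in vehicle replicates 1, 2 and 3. The groups did not overlap, and the AVE0991 libraries were tightly grouped at 26.9 ± 1.13 CPM, against 22.8 ± 1.87 CPM in vehicle libraries (SD, n = 3 each). Its log2 fold change was 0.24 (SE 0.10, 95% interval 0.00 to 0.48, edgeR adjusted p = 0.21), and unlike that of Ece1 it was as large without AVE0991 replicates 2 and 3, at 0.29. After the GC correction it stood at 0.06. Mmp2 was scarce, with 3.01, 3.33 and 2.04 CPM in AVE0991 replicates 1, 2 and 3, against 2.14, 3.68 and 3.80 CPM in vehicle replicates 1, 2 and 3. The groups overlapped. With 90 to 191 counts per library and a log2 fold change of -0.20 (SE 0.30, 95% interval -0.90 to 0.51, adjusted p = 0.721), no difference in Mmp2 was detectable over the spread between these libraries.

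Cathepsin B and cathepsin D, the main lysosomal cysteine and aspartic proteases, had the most counts behind their values. Ctsb had 438, 533 and 468 CPM in AVE0991 replicates 1, 2 and 3, against 360, 414 and 428 CPM in vehicle replicates 1, 2 and 3. Ctsd had 411, 398 and 434 CPM in AVE0991 replicates 1, 2 and 3, against 345, 385 and 385 CPM in vehicle replicates 1, 2 and 3. On this scale neither gene overlapped between groups, though the gaps were narrow, at 438 against 428 CPM for Ctsb and 398 against 385 CPM for Ctsd. The log2 fold changes were 0.26 for Ctsb (SE 0.12, 95% interval -0.03 to 0.56, edgeR adjusted p = 0.256) and 0.16 for Ctsd (SE 0.10, 95% interval -0.08 to 0.40, adjusted p = 0.386). Ctsd was at -0.04 after the GC correction. Microglia, which are rich in cathepsins, gave marker sums of 451, 316 and 379 CPM in AVE0991 replicates 1, 2 and 3, against 401, 348 and 373 CPM in vehicle replicates 1, 2 and 3. Of the 7 microglial markers 3 had a log2 fold change above 0, 0 were called, and none was at 0 counts in any library. In AVE0991 replicate 2, the library with the lowest microglial sum, Ctsb was highest and Ctsd the lowest of the AVE0991 libraries. The part of microglia in the cathepsin values was not tested.

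Lysosomal genes are controlled in part by the transcription factors TFEB and TFE3, which bind promoters around the letters CACGTG. The promoter of Ctsd is shown because it holds this motif at 2 places, beginning 245 and 98 bases before the annotated start. The stretch lies just before the start of Ctsd on the minus strand at chr7:142387828-142388077 (GRCm38.p6, RefSeq), and capitals mark the motif.
Ctsd promoter: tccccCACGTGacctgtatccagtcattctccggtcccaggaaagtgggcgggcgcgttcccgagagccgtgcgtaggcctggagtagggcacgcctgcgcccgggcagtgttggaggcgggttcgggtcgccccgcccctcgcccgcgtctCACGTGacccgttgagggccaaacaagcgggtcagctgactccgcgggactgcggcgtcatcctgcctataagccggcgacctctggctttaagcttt
CACGTG reads the same on both strands. Among promoter windows of 300 bases it occurred for 8.09% of 27025 genes, and at 2 or more places in 1 window for 0.681%. RefSeq windows were found for 6 of the 9 members (Mme, Ide, Ece1, Ece2, Mmp14 and Ctsd), and the motif was present for Ctsd and, in 1 of its 4 windows, for Ece1. Among the other lysosomal genes 7 of 18 with a window held it, and among the other cathepsins 3 of 8. These are matches of letters, not measured binding.

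Tissue plasminogen activator had 21.1, 30.4 and 30.3 CPM in AVE0991 replicates 1, 2 and 3, against 18.6, 22.4 and 19.1 CPM in vehicle replicates 1, 2 and 3. As for Ece1, AVE0991 replicates 2 and 3 were above all vehicle libraries and AVE0991 replicate 1 was below vehicle replicate 2. Plat had a log2 fold change of 0.44 (SE 0.17, 95% interval 0.05 to 0.84, edgeR adjusted p = 0.177). It was 0.08 without AVE0991 replicates 2 and 3, and 0.60 without AVE0991 replicate 1, when Plat passed (adjusted p = 0.0257). Endothelial cells are a source of the enzyme. The 6 endothelial markers summed to 36.7, 116.7 and 59.9 CPM in AVE0991 replicates 1, 2 and 3, against 62.9, 126.9 and 64.1 CPM in vehicle replicates 1, 2 and 3, with 1 of 6 above 0 on the log2 scale, 0 called, and none at 0 counts. Within each group the library with the highest endothelial sum, replicate 2, also had the highest Plat (level with replicate 3 in AVE0991), and AVE0991 replicate 1 had the lowest of both among AVE0991 libraries, while AVE0991 replicate 3 had high Plat with an endothelial sum below all vehicle libraries. As for Ece1, the libraries with high Plat were those with high cerebellar granule sums. These were 196, 1416 and 1446 CPM in AVE0991 replicates 1, 2 and 3. The part of endothelial cells or of the cerebellar signal in the Plat values was not tested.

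**Figure D3:**
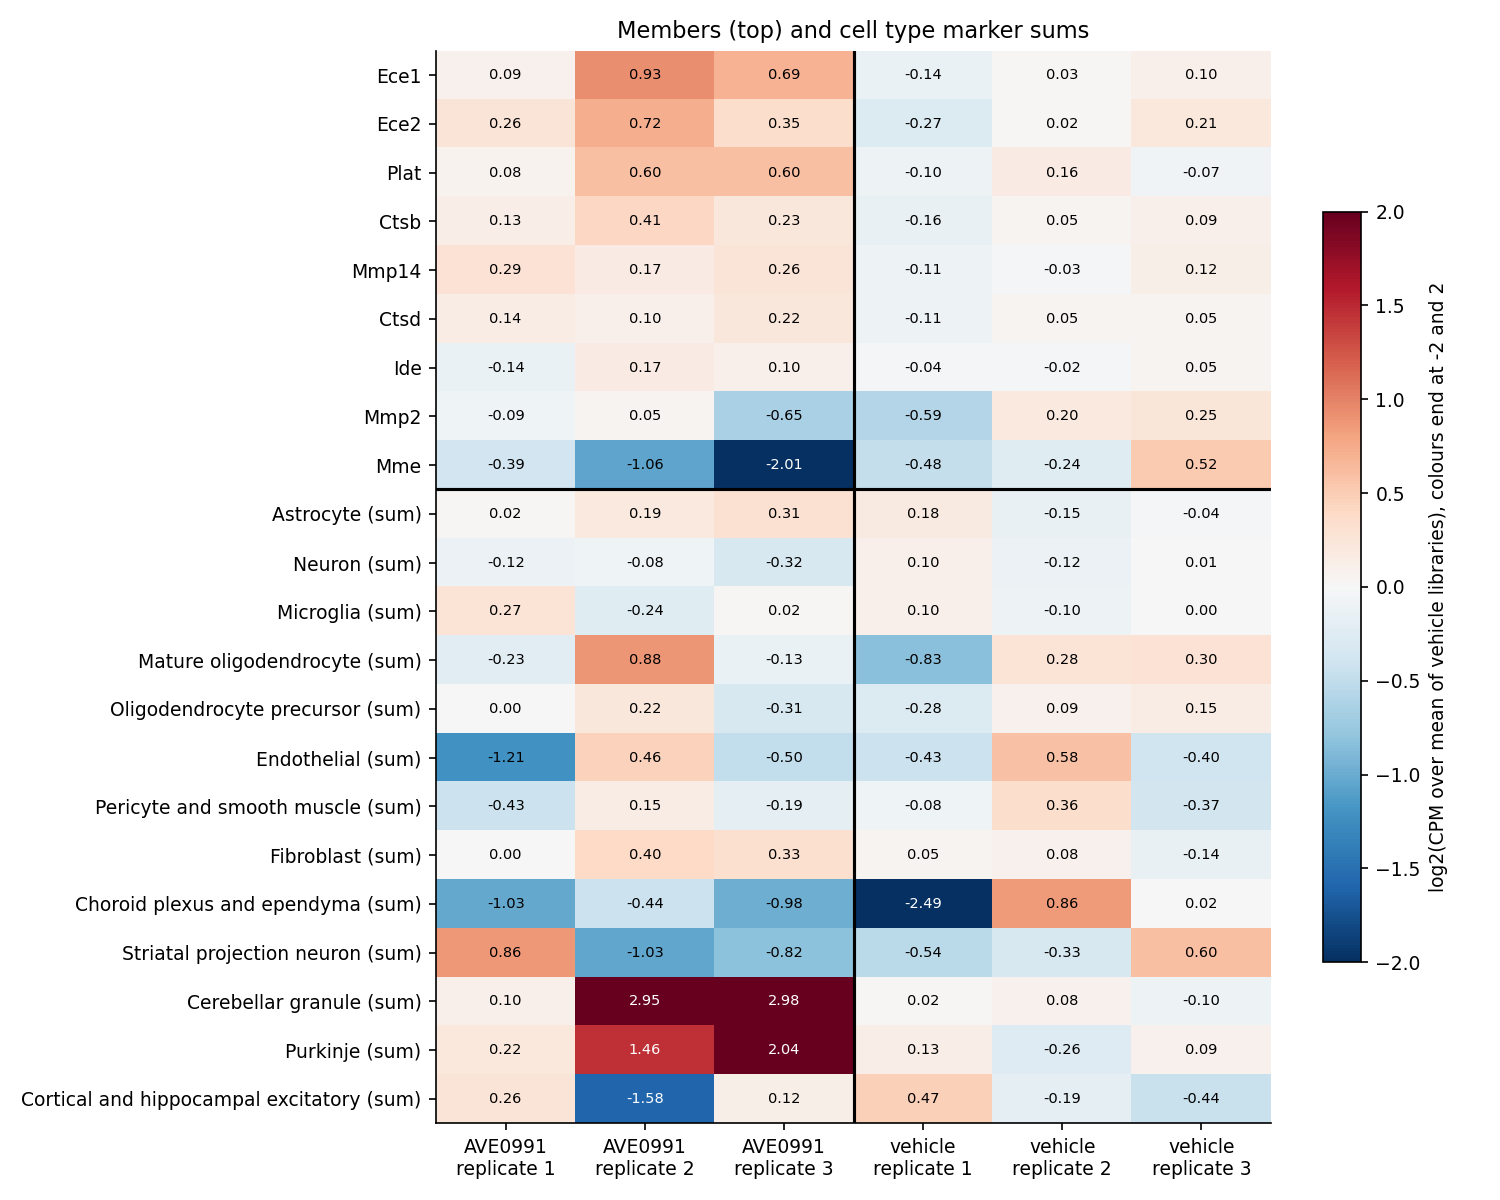
Each protease and each summed marker list in each library, as log2 of its CPM over the mean of the 3 vehicle libraries; colours end at -2 and 2. Ece1 stands at 0.09, 0.93 and 0.69 in AVE0991 replicates 1, 2 and 3, beside cerebellar granule sums of 0.10, 2.955 and 2.985, and Mme at -0.39, -1.06 and -2.01.

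The fit without AVE0991 replicate 1 was the 1 of 21 alternative fits in which any member passed. In it 2 of 9 members were called higher and 0 lower, where 6.63% of 20918 genes were called higher and 4.76% lower. It compares vehicle libraries with the libraries of high cerebellar signal alone, and the part of that signal in those calls was not tested. The fit without AVE0991 replicates 2 and 3 gave a median log2 fold change of 0.10 over the 9 members and -0.03 over all genes tested, with 0 members called. In that fit the single AVE0991 library left is assumed to vary like the vehicle libraries. Vehicle replicate 1 had the lowest value of the 6 libraries for Ece1, Ece2, Mmp14, Ctsb, Ctsd and Plat. Without that library the median was 0.21 over the 9 members and 0.02 over all genes tested. With the GC correction the median was 0.21 over the 9 members and -0.03 over all genes tested. Ece1 then had a log2 fold change of 0.43, Ece2 0.36, Plat 0.52, Ctsb 0.21, Ide 0.25 and Mmp14 0.06. Ctsd was at -0.04, Mmp2 at -0.38 and Mme at -0.40.

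**Figure D4:**
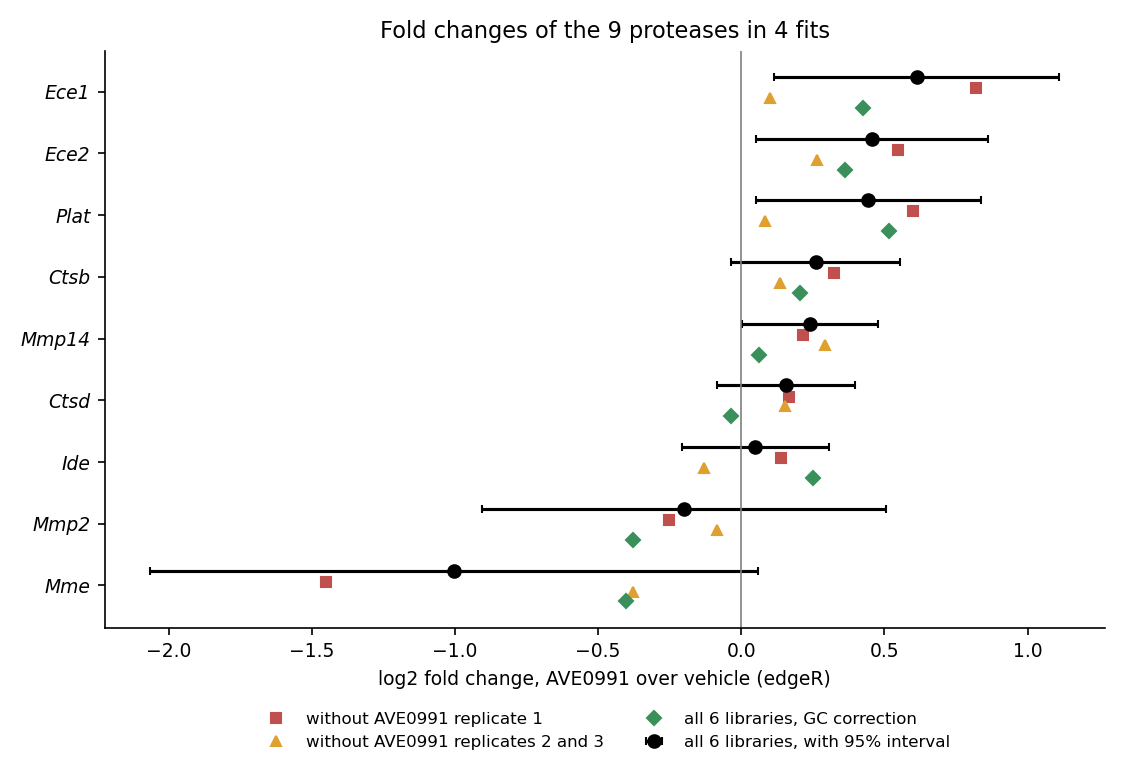
Log2 fold changes of the 9 proteases, AVE0991 over vehicle, from edgeR with all libraries (circles with 95% intervals), without AVE0991 replicate 1 (squares), without AVE0991 replicates 2 and 3 (triangles), and with a GC correction (diamonds). Ece1 moves between 0.10 and 0.82 and Mme between -1.45 and -0.38 across these fits, whereas Mmp14 is 0.22 or 0.29 in the fits that leave out AVE0991 libraries and 0.06 with the GC correction.

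Separation of the groups without overlap was likewise a matter of scale. On TMM-scaled CPM 4 of 9 members (Ece2, Mmp14, Ctsb and Ctsd) were higher in every AVE0991 library than in any vehicle library and 0 were lower throughout, where 14.3% of all genes tested were higher and 16.3% lower, 30.6% in either direction. On the authors' FPKM scale the members were Ece2 and Mmp14, and with CPM of library totals Ece2 alone. The share of all genes tested that were higher without overlap was 8.65% on the FPKM scale and 8.79% with library totals. With library totals the median log2 fold change over all genes tested was -0.09. In the authors' deposited table, whose sign is AVE0991 over vehicle, Ece1 had a log2 fold change of 0.63 with a q-value of 0.0971. That table gave Mme -0.98 with a q-value of 0.214. None of the members had a q-value under 0.05 in the authors' deposited table, a mark met by 4.71% of its 33677 gene rows with a q-value.

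The genes around the 9 proteases were read from lists of other peptidases, cathepsins, inhibitors, activators and receptors, lysosomal genes and neprilysin or endothelin-converting enzyme substrates. Of 87 genes tested on these 6 lists, 0 were called in either direction, beside 0.864% of all genes. At an unadjusted edgeR p under 0.05 there were 19 of the 87, beside 23.6% of all genes tested. DESeq2 called 9 of the 87 higher and 1 lower, beside 4.88% and 6.5% of all genes, and limma-voom 5 higher and 0 lower, beside 2.58% and 3.78%, all among the genes named in the paragraphs on these lists. Without AVE0991 replicate 1 edgeR called 9 of the 87 higher (A2m, Ctsf, Furin, Htra1, Igf2r, Mcoln1, Mmp24, Pcsk6 and Timp4) and 2 lower (Nts and Sst), beside 6.63% and 4.76% of all genes in that fit.

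Other peptidases with amyloid-beta or related substrates had a median log2 fold change of 0.11, with 13 of 17 above 0, and of 0.08 with 9 above 0 without AVE0991 replicates 2 and 3. Mmp16, a membrane-type metalloproteinase, stood at 32.8 ± 5.26 CPM in AVE0991 and 62.6 ± 16.0 CPM in vehicle libraries (SD, n = 3 each) without overlap (log2 fold change -0.93, SE 0.21, edgeR adjusted p = 0.0868). Htra1, a secreted serine protease, stood at 209.6 ± 31.6 CPM in AVE0991 and 144 ± 6.58 CPM in vehicle libraries (0.54, SE 0.13, adjusted p = 0.1). Mmp24, another membrane-type enzyme, had 49.4, 138.5 and 168.7 CPM in AVE0991 replicates 1, 2 and 3, against 41.5 to 50.8 CPM in vehicle libraries, the split seen in Ece1. Its log2 fold change was 1.41 in all libraries and 0.15 without AVE0991 replicates 2 and 3. Apeh, an acylpeptide hydrolase, was at 0.49 (adjusted p = 0.199). Plasminogen itself, the substrate of tissue plasminogen activator, did not pass the filter, with a mean of 0.0453 CPM over the libraries.

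Of the other cathepsins 9 of 11 lay above 0, with a median of 0.20. Ctsf had the lowest p of these, at 68.5 ± 12.97 CPM in AVE0991 and 48.9 ± 2.87 CPM in vehicle libraries (log2 fold change 0.49, SE 0.15, adjusted p = 0.134). Ctsa (0.21) and Ctsl (0.25) were close to Ctsb in size. Ctsc, the dipeptidyl peptidase that activates serine proteases of immune cells, lay the other way at 5.89 ± 0.981 CPM in AVE0991 and 8.10 ± 0.789 CPM in vehicle libraries (-0.46, SE 0.17, adjusted p = 0.178). After the GC correction Ctsc was at -0.09 and the median of the other cathepsins was 0.04. That median was also 0.04 without AVE0991 replicates 2 and 3.

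The other lysosomal genes had a median of 0.24, with 19 of 23 above 0, close to that of the 9 proteases. Grn, the progranulin gene, stood at 74.9 ± 7.42 CPM in AVE0991 and 58.5 ± 2.98 CPM in vehicle libraries (log2 fold change 0.35, SE 0.11, adjusted p = 0.128). Psap, which encodes the saposins that assist lipid breakdown, was at 0.33 (SE 0.12), the calcium channel gene Mcoln1 at 0.35 (SE 0.13), and the transcription factor gene Tfe3 at 0.29 (SE 0.09), with adjusted p-values of 0.133 to 0.183. Without AVE0991 replicates 2 and 3 the lysosomal median was 0.13, and after the GC correction 0.12. Over the 9 proteases the medians in those fits were 0.10 and 0.21. 8 of the 23 were higher and 2 lower without overlap on TMM-scaled CPM, beside 14.3% and 16.3% of all genes tested.

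Protease inhibitors had a median of 0.20, with 10 of 14 above 0. Timp4, a tissue inhibitor of metalloproteinases, had 42.1, 110.7 and 143.1 CPM in AVE0991 replicates 1, 2 and 3, against 30.1, 35.5 and 41.1 CPM in vehicle replicates 1, 2 and 3. A2m, the broad protease trap alpha-2-macroglobulin, had 13.2, 89.6 and 97.2 CPM in AVE0991 replicates 1, 2 and 3, against 8.02, 18.96 and 15.1 CPM in vehicle replicates 1, 2 and 3. Both were high in the libraries with high cerebellar marker sums, and the log2 fold changes were 1.47 for Timp4 and 2.25 for A2m. They were 0.25 for Timp4 and -0.08 for A2m without AVE0991 replicates 2 and 3. The part of the cerebellar signal in these values was not tested. Serpini1, or neuroserpin, the neuronal inhibitor of tissue plasminogen activator, stood at 65.1 ± 13.4 CPM in AVE0991 and 102 ± 20.2 CPM in vehicle libraries (-0.65, SE 0.20, adjusted p = 0.135), and at -0.02 after the GC correction. Timp1 was scarce, at 0.489 ± 0.201 and 0.246 ± 0.199 CPM. Timp2 and Cst3 were picked for their roles after the values were seen. Timp2, which joins Mmp14 in activating Mmp2, had a log2 fold change of -0.12 (SE 0.20) and Cst3, or cystatin C, which inhibits cathepsin B, one of -0.08 (SE 0.21).

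Among activators and receptors the median was 0.22, with 9 of 13 above 0, and 0.03 with 7 above 0 without AVE0991 replicates 2 and 3. Furin, the convertase that activates pro-Mmp14, had 55.3, 85.2 and 89.6 CPM in AVE0991 replicates 1, 2 and 3, against 49.2, 49.2 and 49.5 CPM in vehicle replicates 1, 2 and 3. The vehicle libraries were almost equal and all AVE0991 libraries higher (log2 fold change 0.64, SE 0.18, adjusted p = 0.122), though without AVE0991 replicates 2 and 3 the value was 0.17. Pcsk6, a related convertase, was at 1.09 (SE 0.36) and at 0.04 without those libraries. Plaur, the urokinase receptor, was low at 1.54 ± 0.239 CPM in AVE0991 and 0.915 ± 0.166 CPM in vehicle libraries (0.75, SE 0.26, adjusted p = 0.154) and did not share that pattern, at 0.88 without AVE0991 replicates 2 and 3. Anxa2, a plasminogen-binding annexin, was at 0.38 (SE 0.16). The substrate list, which also holds the bradykinin receptor gene Bdkrb2, had 9 tested genes with a median of -0.15 and 4 above 0. That direction rested on the libraries: the median was 0.18 with 6 above 0 without AVE0991 replicates 2 and 3, and -0.41 without AVE0991 replicate 1. Sst, the somatostatin gene, stood at 48.9 ± 20.6 CPM in AVE0991 and 64.2 ± 6.80 CPM in vehicle libraries (-0.39, SE 0.28, adjusted p = 0.439). Tac1, the substance P precursor, was at -0.43 (SE 0.77), Nts, the neurotensin gene, at -0.71 (SE 0.54) and Bdkrb2 at 0.34 (SE 0.42). Sst was at 0.17, Tac1 at 0.73 and Nts at 0.27 without AVE0991 replicates 2 and 3.

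**Figure D5:**
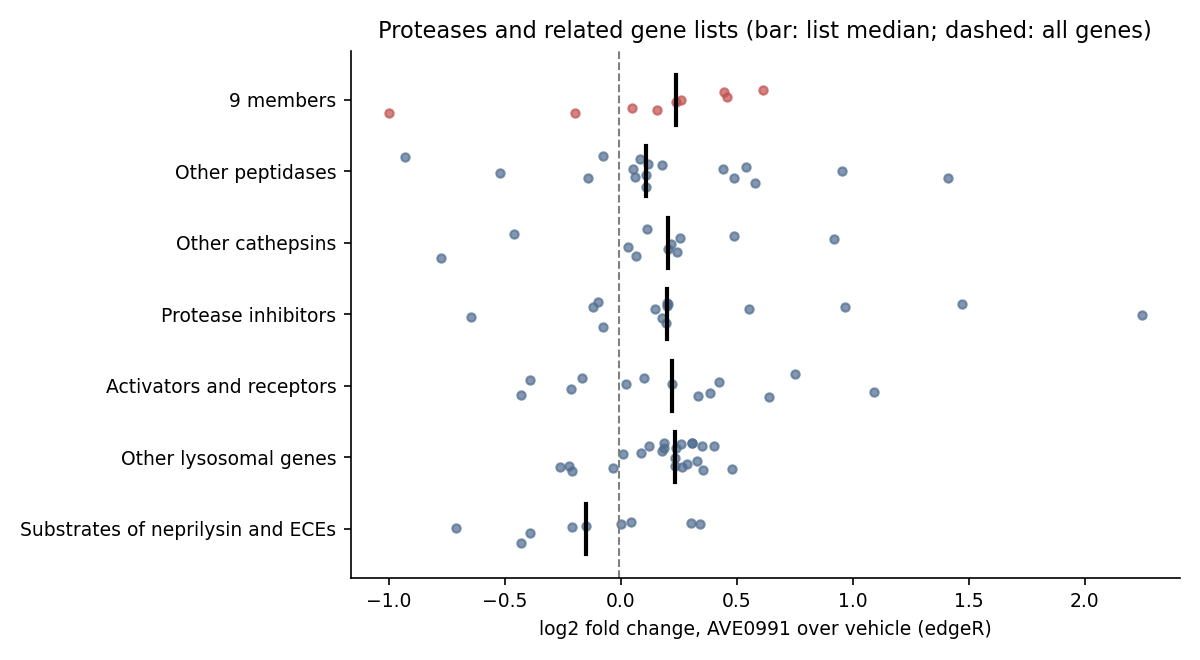
Log2 fold changes, AVE0991 over vehicle, of the 9 proteases and of the tested genes of 6 related lists; each point is 1 gene, the bar is the list median and the dashed line the median of all genes tested, -0.01. The medians run from -0.15 for the substrates to 0.24 for the members and for the other lysosomal genes, and none of the points passed at an adjusted p under 0.05.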

How the data were processed

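The 6 RNA-seq libraries were analysed from a table that the authors deposited with 1 row per gene or circular RNA. Per the file headers it holds estimated counts and FPKM values per library; 81.6% of the counts were whole numbers. HISAT and the mouse build mm9 are named in the submitters' processing notes, while those notes name no counting tool and no strand setting. A deposited table of the authors' comparison gives log2 fold changes with p-values and q-values. Here the 36210 gene rows were taken, 25 symbols turned into dates by a spreadsheet were restored through their Entrez IDs, and estimated counts were rounded. The test was edgeR 4.0.16 in R 4.3.3 (filterByExpr, TMM, robust quasi-likelihood F test, Benjamini-Hochberg adjustment over 20363 genes, threshold 0.05). Standard errors were derived from the log2 fold change and the F statistic. DESeq2 1.42.0 and limma 3.58.1 served as alternatives. The limma-voom fit gave each library a quality weight. The GC correction used smooth splines with 8 degrees of freedom on the GC content of the longest GENCODE M21 transcript. CPM values use TMM-scaled library sizes.

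The members and lists were chosen with earlier results of these data known. From each list the text names up to 4 genes with the smallest p, plus Timp2, Cst3 and plasminogen, chosen for their roles after the values were seen, and the genes called in an alternative fit. The genes most like a member are given for members whose log2 CPM spans at least 1 over the libraries. On counts simulated for 20363 genes the test recovered 55% of genes changed by 1 on the log2 scale and 100% of those changed by 2, with 11 false calls among 166. Changes were placed only in genes with higher counts, and none was smaller than 1. Each gene was drawn at the trended dispersion, without a spread of its own. The simulated libraries held no differences in cell type composition, so these rates may not hold for the real libraries. Sequences came from GENCODE M21 transcripts and RefSeq promoter windows (GRCm38.p6). No pair of libraries agreed within counting noise, so none was merged as a duplicate.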

Additional observations from a re-analysis of the deposited data

How the results depend on the processing

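In 21 alternative fits 0 of 9 proteases passed, except that 2 (Ece1 and Plat) passed without AVE0991 replicate 1, so leaving out 1 library gave 0 to 2 members called. The number of genes called, 176 with all libraries, depended strongly on the fit. It was 560 with library totals, 437 without a filter on low counts, 346 with a mean of at least 1 CPM, 2318 by DESeq2, 1295 by limma-voom, 267 by limma on log2 of FPKM plus 1, 2 with circular RNA rows in the fit, and 2 with the GC correction. Leaving out 1 library gave 0 to 2381 genes, the highest without AVE0991 replicate 1; the cause was not tested. In the edgeR fits without 1 of the other libraries 0 genes were called and 3205 to 3818 had an unadjusted p under 0.05. Without AVE0991 replicates 2 and 3 there were 0 calls and 2833 such genes.

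The log2 fold change of Ide was -0.0394 with library totals, -0.0405 on log2 of FPKM plus 0.1, -0.0365 on log2 of FPKM plus 1 and -0.131 without AVE0991 replicates 2 and 3, and leaving out 1 library gave -0.0103 to 0.138. Ctsd was at -0.0373 with the GC correction and at -0.0385 with the GC correction and the block. Without AVE0991 replicates 2 and 3 A2m was at -0.0825, Nts at 0.27, Sst at 0.17 and Tac1 at 0.73. Leaving out 1 library gave -1.805 to 0.0522 for Tac1. No pairing by replicate number was evident: deviations of same-numbered libraries from their group means correlated at 0.00, 0.13 and -0.47. These values cannot exclude a pairing, since the large differences within the AVE0991 group enter the deviations. With the replicate number as a block 0 genes and 0 members were called (3937 genes at an unadjusted p under 0.05), as were 0 with the GC correction and the block, which was chosen after seeing the data.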
